A study of Mus musculus with 10 samples.

Results

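The 9 genes described here are expressed mainly in germ cells and were chosen by name, with earlier results of these data known. They encode 3 cohesin subunits of meiosis (Smc1b, Stag3 and Rec8), 2 proteins of the synaptonemal complex (Sycp1 and Sycp3), 3 factors of germ cell RNA metabolism (Dazl, Ddx4 and Mael) and Stra8, a regulator of entry into meiosis. All 9 were represented on the array, by 10 probe sets that carry a single gene symbol, out of 18193 genes and 45037 probe sets tested in the series. Dazl had 2 probe sets and every other gene had 1. CJ9 cells, a 129SvJ-derived line of mouse embryonic stem cells (ESCs), were used throughout. They received a lentivirus with 1 of 2 short-hairpin RNAs (shRNAs) to Wapal (gene symbol Wapl), a factor that takes cohesin off chromatin, with 1 of 2 shRNAs to Smc3, which forms part of the cohesin ring itself, or with the Empty Vector pLKO.1, which carries no shRNA. Each of the 5 groups (Wapal shRNA1, Wapal shRNA2, Smc3 shRNA1, Smc3 shRNA2 and Empty Vector) had 2 Affymetrix mouse genome arrays. All groups were exposed to virus and polybrene for 48 h and then kept for 48 h with LIF, which sustains pluripotency, and with puromycin at 4 µg/mL, which kills uninfected cells. The effects of carrying any shRNA and of losing the target cannot be told apart, since Empty Vector has no hairpin, and all groups come from 1 line.

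Cohesin is a ring that holds sister chromatids together. In meiosis some of its subunits are exchanged: Smc1b takes the place of Smc1a, Rec8 that of Rad21, and Stag3 that of Stag1 or Stag2. The axis they build carries the synaptonemal complex, in which Sycp3 lies along each homologous chromosome and Sycp1 bridges the pair. Many genes of this programme are kept silent in somatic cells by DNA methylation of CG-rich promoters, and in ESCs also by a variant Polycomb complex that contains Mga, Max and E2f6. ESCs in culture carry transcripts of several of them.

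Promoter sequences were read for all 9 genes, as 300 bases around a RefSeq transcript start (250 before to 50 after it, assembly GRCm38.p6). The E-box CACGTG, the letters bound by Mga with Max, was found in 5 of the 9 windows, those of Stag3, Sycp1, Sycp3, Ddx4 and Mael. It was present in 7.15% of all 32851 windows of the table. The longer E2F letters GGCGGGAA were found only for Ddx4 (2.19% of all windows). The shorter GCGGGAA, which the longer motif contains, was found for Smc1b, Stag3, Sycp3 and Ddx4 (4.6% of all windows). Both strands were searched, and the E-box reads the same on both. The median window of the 9 genes held 24 CG dinucleotides, and that of all windows held 7. The windows of Mael, Stag3, Sycp1 and Sycp3 are shown because each of these genes was called higher in at least 1 depletion and its window held the E-box. Capitals mark the E-box and the shorter E2F letters. In the Stag3 window the E2F letters lie on the other strand and read TTCCCGC. They lie at chr1:166238695-166238994 on the minus strand (Mael), chr5:138280259-138280558 on the plus strand (Stag3), chr3:102936051-102936350 on the minus strand (Sycp1) and chr10:88459337-88459636 on the plus strand (Sycp3). The window of Stag3 begins at a transcript start other than the annotated start of the gene.
Mael: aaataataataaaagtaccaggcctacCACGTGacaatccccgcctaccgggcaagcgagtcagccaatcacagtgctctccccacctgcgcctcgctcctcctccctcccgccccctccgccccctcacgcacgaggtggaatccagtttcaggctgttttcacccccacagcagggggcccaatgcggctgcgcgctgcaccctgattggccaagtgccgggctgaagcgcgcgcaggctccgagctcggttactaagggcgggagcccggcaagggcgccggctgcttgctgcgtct
Stag3: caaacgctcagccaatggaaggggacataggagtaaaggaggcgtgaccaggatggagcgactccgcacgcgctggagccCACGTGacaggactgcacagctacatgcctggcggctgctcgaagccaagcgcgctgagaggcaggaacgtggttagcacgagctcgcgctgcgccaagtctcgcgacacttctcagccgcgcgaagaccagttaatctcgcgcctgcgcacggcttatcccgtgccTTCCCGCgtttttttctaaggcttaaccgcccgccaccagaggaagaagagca
Sycp1: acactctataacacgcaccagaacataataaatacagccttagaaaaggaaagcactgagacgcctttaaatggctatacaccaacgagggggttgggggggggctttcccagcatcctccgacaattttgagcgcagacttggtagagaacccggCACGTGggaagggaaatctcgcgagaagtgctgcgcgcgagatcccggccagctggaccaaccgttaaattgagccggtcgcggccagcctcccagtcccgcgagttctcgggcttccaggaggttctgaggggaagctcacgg
Sycp3: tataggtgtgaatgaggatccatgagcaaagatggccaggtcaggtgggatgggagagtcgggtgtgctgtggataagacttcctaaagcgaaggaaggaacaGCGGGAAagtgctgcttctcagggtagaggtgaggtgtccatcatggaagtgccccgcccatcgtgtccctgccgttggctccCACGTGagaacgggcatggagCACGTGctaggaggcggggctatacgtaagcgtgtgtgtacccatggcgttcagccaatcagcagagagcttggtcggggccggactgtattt

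A motif match is a description of letters and not a bound site. The windows of Smc1b, Rec8, Dazl and Stra8 held no CACGTG. Among these, Smc1b, Stra8 and Dazl on 1 of its 2 probe sets were called higher after Smc3 depletion.

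Expression values were normalised intensities on a linear scale, and log2 of them was compared. The median intensity was 38.61 to 39.72 on the 10 arrays, and the log2 difference between the arrays of a group had an SD of 0.19 to 0.203 in the shRNA groups and 0.25 with Empty Vector. Wapl was lower by 62.46% with Wapal shRNA1 and 91.22% with Wapal shRNA2, and Smc3 by 88.26% with Smc3 shRNA1 and 86.74% with Smc3 shRNA2. All 10 defining ESC markers lay above a log2 value of 6, under which signal and background are hard to separate. Probe sets of olfactory receptor genes, which ESCs are not known to use, had a 95th percentile of 4.62, and every member probe set averaged more than that. Rec8 was the only member with an average under 6 (5.73). The group means of Sycp1 lay close to 6 with Empty Vector (6.05), Wapal shRNA2 (6.18) and Smc3 shRNA1 (6.18). The replicates are called biological, but the labels do not say that they came from separate infections, so the p-values take in just the spread among these arrays, which may be technical. Precision is limited by the number of arrays. In these bulk samples, more cells that express a gene and more RNA per expressing cell cannot be told apart.

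The first comparison asked which of these genes depend on Wapal. Sycp1, Sycp3 and Mael rose in Wapal-depleted ESCs, by 0.79 to 1.17 in log2 for both shRNAs together, and no member fell. The other 7 of the 10 probe sets did not pass. The test was limma's, with p-values adjusted over all 45037 probe sets and called under 0.05, and 2.08% of all probe sets were called higher and 3.83% lower. The median change of the 10 probe sets was 0.31, and it was 0.02 over all probe sets. At an unadjusted p under 0.05, 6 member probe sets passed, and 23.2% of all probe sets did. With the methods' t-test, named there for comparisons in general and run here with both Wapal shRNAs pooled, 0 passed after adjustment.

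The second comparison asked the same of Smc3. Smc1b, Stag3, Sycp1, Mael, Stra8 and 1 of the 2 Dazl probe sets rose in Smc3-depleted ESCs, by 0.39 to 0.96, and no member fell. Across all probe sets, 4.22% were called higher and 3.41% lower. The median change was 0.39 for the 10 probe sets and 0.00 for all. Counted by gene on the brightest probe set, 5 of the 9 members were called higher, and 6.08% of all genes were. Both comparisons use the same 2 Empty Vector arrays, and Sycp1 and Mael were called in both. The Smc3 samples are numbered apart from the Empty Vector and Wapal samples in the series, and no label names a batch. A batch of the Smc3 arrays, if there was any, cannot be told apart from Smc3 depletion.

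**Figure D1:**
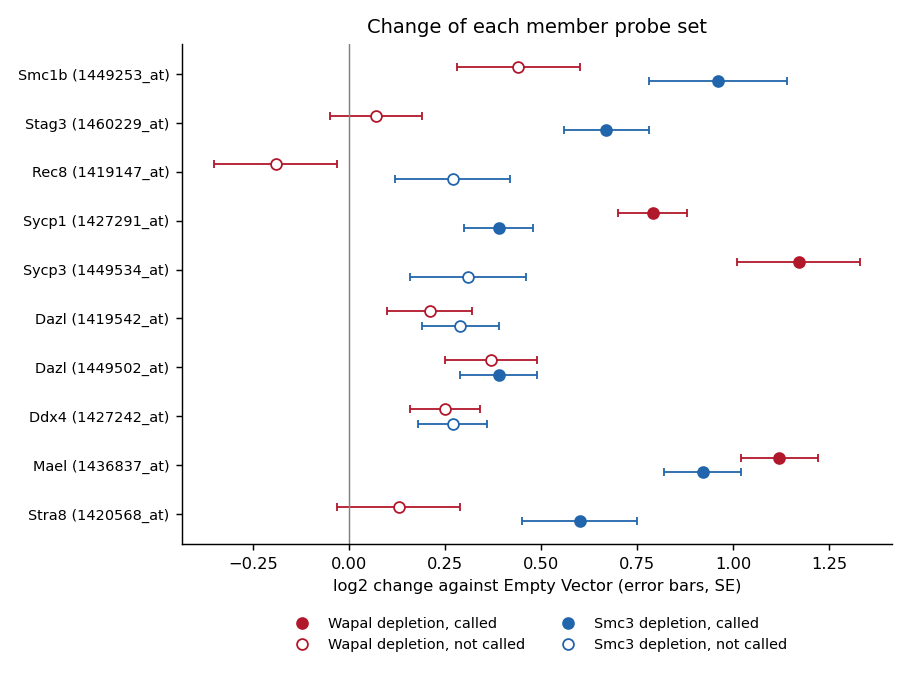
Change in log2 intensity against Empty Vector (horizontal axis) of each of the 10 member probe sets after depletion of Wapal (red) or Smc3 (blue), with the SE of the fit; filled points passed an adjusted p of 0.05. Mael lies at 1.12 with Wapal and 0.92 with Smc3 depletion, while Sycp3 lies at 1.17 and 0.31, and Stag3 at 0.07 and 0.67.

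Among the meiotic cohesin subunits, Smc1b, the meiotic version of the ring subunit Smc1a, rose after Smc3 depletion. Its intensity (probe set 1449253_at, gene on chromosome 15) was 148 and 113 with Wapal shRNA1, 194.5 and 228 with Wapal shRNA2, 238 and 183.5 with Smc3 shRNA1, 230.1 and 309 with Smc3 shRNA2, and 104 and 142 with Empty Vector. All 4 Smc3 shRNA arrays lay above both Empty Vector arrays, as did both Wapal shRNA2 arrays, whereas Wapal shRNA1 overlapped them. The change was 0.96 ± 0.18 with Smc3 depletion (SE, 4 arrays of 2 shRNAs against 2 arrays, 1.95-fold, adjusted p = 0.0145) and 0.44 ± 0.16 with Wapal depletion (adjusted p = 0.145). Without Empty Vector replicate 1 the Smc3 value was 0.73 (adjusted p = 0.0792), and without Smc3 shRNA2 replicate 2 it was 0.85 (adjusted p = 0.0568).

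Stag3, the meiotic version of the subunits Stag1 and Stag2, rose after Smc3 depletion as well. Its intensity (1460229_at, chromosome 5) was 189 and 165.5 with Wapal shRNA1, 177 and 196 with Wapal shRNA2, 221 and 205 with Smc3 shRNA1, 327.5 and 376 with Smc3 shRNA2, and 157 and 189 with Empty Vector. The Smc3 shRNA2 arrays stood highest, the Smc3 shRNA1 arrays lay just above Empty Vector, and the Wapal shRNA arrays overlapped it. The change was 0.67 ± 0.11 with Smc3 depletion (1.59-fold, adjusted p = 0.0108) and 0.07 ± 0.12 with Wapal depletion (adjusted p = 0.744). With single shRNAs Stag3 was called with Smc3 shRNA2 (1.03) and not with Smc3 shRNA1 (0.31), and it was lower with Smc3 shRNA1 than with Smc3 shRNA2 by 0.72 ± 0.13 (adjusted p = 0.0123). Without Empty Vector replicate 1 the change was 0.53 (adjusted p = 0.0624).

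Rec8, the meiotic counterpart of the kleisin Rad21, did not pass in either comparison. Its intensity (1419147_at, chromosome 14) was dim, at 40.6 and 44.3 with Wapal shRNA1, 43.5 and 54.7 with Wapal shRNA2, 67.7 and 82.3 with Smc3 shRNA1, 53.8 and 52.1 with Smc3 shRNA2, and 43.6 and 62.1 with Empty Vector. Only the Smc3 shRNA1 arrays lay above both Empty Vector arrays, which themselves differed by 0.51 in log2. The change was -0.19 ± 0.16 with Wapal depletion (adjusted p = 0.499) and 0.27 ± 0.15 with Smc3 depletion (adjusted p = 0.352). Without Empty Vector replicate 2 the Smc3 value was 0.53 (adjusted p = 0.0472).

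Of 15 measured genes of mitotic cohesin and its regulators, 1 rose and 2 fell with Wapal depletion and 1 rose and 1 fell with Smc3 depletion, the depleted genes included. Of the subunits that the meiotic ones replace, Stag2 rose in both depletions, by 0.39 ± 0.09 with Wapal (adjusted p = 0.0456) and 0.82 ± 0.09 with Smc3 depletion (adjusted p = 0.00192). Smc1a (-0.01 and 0.04), Rad21 (0.01 and -0.15) and Stag1 (0.07 and 0.33) did not pass with Wapal or Smc3 depletion, in that order. No fall of Smc1a, Stag1 or Stag2 was called with Smc3 depletion, though a missing call does not show an unchanged gene. The values are of RNA, and a link to the rises of Smc1b and Stag3 was not tested.

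Both synaptonemal complex genes rose after Wapal depletion, but not with the same shRNAs. The intensity of Sycp1, the protein that bridges homologous chromosomes (1427291_at, chromosome 3), was 188 and 173 with Wapal shRNA1, 71 and 74.5 with Wapal shRNA2, 70 and 75.4 with Smc3 shRNA1, 102 and 106 with Smc3 shRNA2, and 68.4 and 64.1 with Empty Vector. Wapal shRNA1 stood far above the other groups and Smc3 shRNA2 came next, while Wapal shRNA2 and Smc3 shRNA1 lay just above both Empty Vector arrays. The change was 0.79 ± 0.09 with Wapal depletion (1.73-fold, adjusted p = 0.00677) and 0.39 ± 0.09 with Smc3 depletion (1.31-fold, adjusted p = 0.0378). It was 1.44 with Wapal shRNA1 and 0.13 with Wapal shRNA2, a difference of 1.31 ± 0.11 (adjusted p = 0.00955), so the mean over both shRNAs rests on 1 of them. It was 0.13 with Smc3 shRNA1 and 0.65 with Smc3 shRNA2, a difference of -0.52 ± 0.11 (adjusted p = 0.0194). The call with Smc3 depletion was lost in each of the 6 fits that left out 1 array (adjusted p up to 0.119).

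Sycp3, the protein of the lateral elements, was high in 3 of the 4 shRNA groups. Its intensity (1449534_at, chromosome 10) was 560.4 and 418 with Wapal shRNA1, 421 and 393 with Wapal shRNA2, 372 and 345 with Smc3 shRNA1, 149 and 186 with Smc3 shRNA2, and 167 and 232 with Empty Vector. All 4 Wapal shRNA arrays and both Smc3 shRNA1 arrays lay above the Empty Vector arrays, and Smc3 shRNA2 overlapped them. The change was 1.17 ± 0.16 with Wapal depletion (2.25-fold, adjusted p = 0.00995) and 0.31 ± 0.15 with Smc3 depletion (adjusted p = 0.276). Both Wapal shRNAs were called (1.30 and 1.05 for Wapal shRNA1 and Wapal shRNA2). With Smc3 the change was 0.87 for Smc3 shRNA1, which was called, and -0.24 for Smc3 shRNA2, and these differed by 1.11 ± 0.17 (adjusted p = 0.00689). Sycp1 and Sycp3 thus ran in opposite directions between the Smc3 shRNAs.

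**Figure D2:**
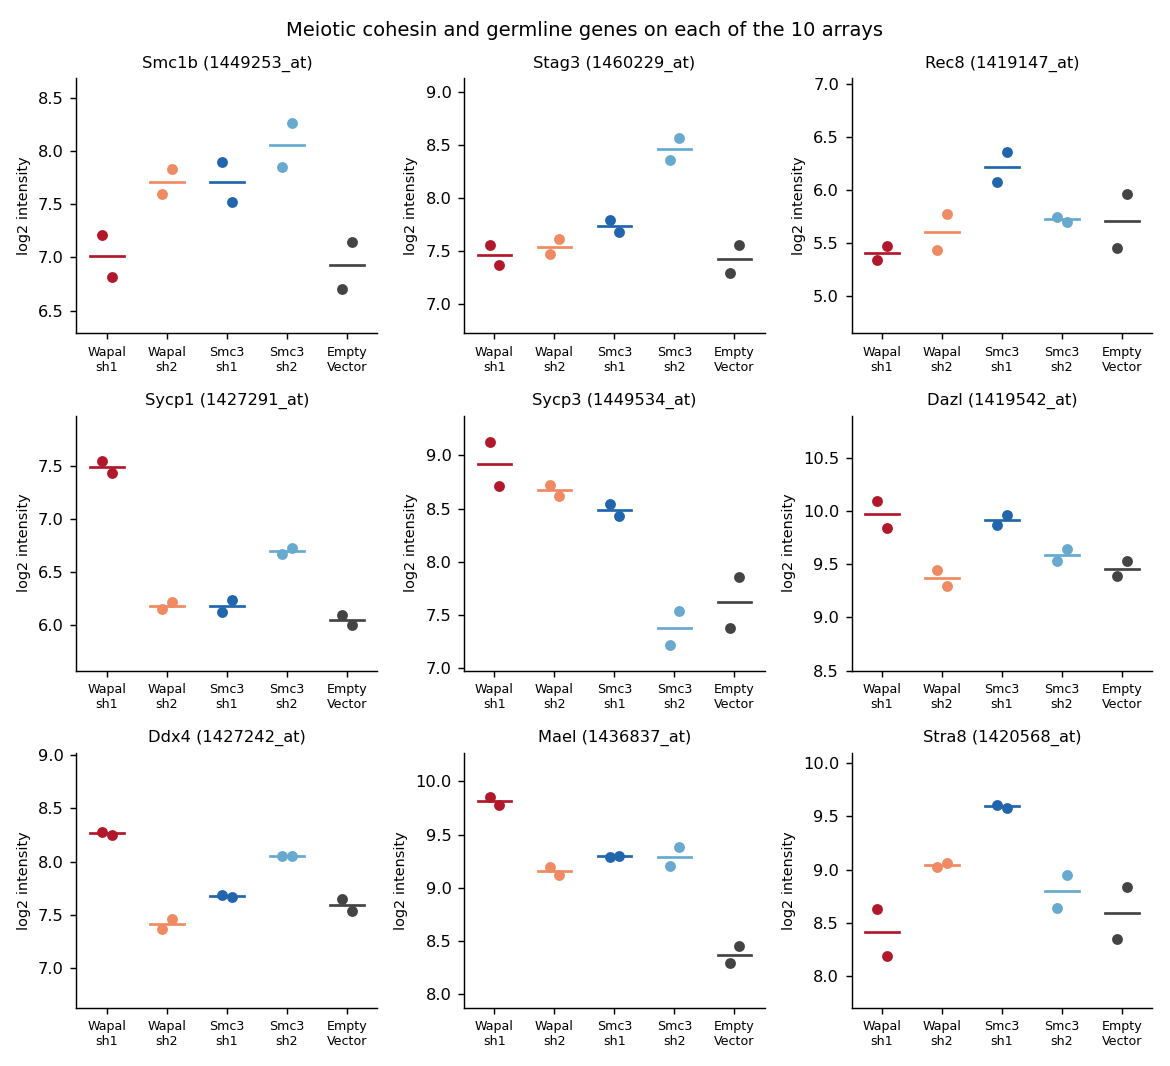
Log2 intensity (vertical axis, scaled separately for each gene with the same span of units) of the brightest probe set of each member on each array (points), the line being the mean of the 2 arrays of a group. The means of Mael, Smc1b, Stag3 and Sycp1 are above Empty Vector in all 4 shRNA groups, and the genes differ in which shRNA stands highest.

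Mael, a component of the germ granule (nuage) needed for piRNA-guided silencing of transposons, was the member called with each of the 4 shRNAs. Its intensity (1436837_at, chromosome 1) was 924 and 877 with Wapal shRNA1, 584 and 558 with Wapal shRNA2, 625 and 631 with Smc3 shRNA1, 588 and 667 with Smc3 shRNA2, and 313 and 349 with Empty Vector. All 8 shRNA arrays lay above both Empty Vector arrays. The Wapal shRNA1 arrays stood highest, and the other 3 shRNA groups lay close to each other. The change was 1.12 ± 0.10 with Wapal depletion (2.17-fold, adjusted p = 0.00273) and 0.92 ± 0.10 with Smc3 depletion (1.90-fold, adjusted p = 0.00169). Wapal shRNA1 was above Wapal shRNA2 by 0.66 ± 0.11 (adjusted p = 0.0401), and between the Smc3 shRNAs the difference was 0.00 ± 0.11. Mael was called in all 6 fits that left out 1 array, for either depletion.

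Dazl, an RNA-binding protein that promotes translation in germ cells, passed in 1 of the 2 depletion means, that of Smc3, and there on its dimmer probe set. On the brighter probe set (1419542_at, chromosome 17) the intensity was 1099.9 and 917 with Wapal shRNA1, 698.5 and 631 with Wapal shRNA2, 938 and 999 with Smc3 shRNA1, 738 and 795 with Smc3 shRNA2, and 669 and 742 with Empty Vector. The Wapal shRNA1 and Smc3 shRNA1 arrays lay above Empty Vector and the other shRNA arrays overlapped it. The change was 0.21 ± 0.11 with Wapal depletion (adjusted p = 0.296) and 0.29 ± 0.10 with Smc3 depletion (adjusted p = 0.117). On the other probe set (1449502_at) it was 0.37 ± 0.12 with Wapal (adjusted p = 0.117) and 0.39 ± 0.10 with Smc3 depletion (adjusted p = 0.0472), and on this probe set all 8 shRNA arrays lay above both Empty Vector arrays. The Smc3 call on this probe set held in 1 of the 6 fits that left out 1 array (adjusted p up to 0.219). With single shRNAs, Dazl was called on both probe sets with Smc3 shRNA1 (0.46 and 0.59) and on neither with the other shRNAs.

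Ddx4, the RNA helicase also known as Vasa, passed with single shRNAs but not in either mean. Its intensity (1427242_at, chromosome 13) was 312 and 305 with Wapal shRNA1, 165 and 176 with Wapal shRNA2, 206 and 203 with Smc3 shRNA1, 265 and 264 with Smc3 shRNA2, and 201 and 186.5 with Empty Vector. Wapal shRNA1 stood highest and Smc3 shRNA2 next, and both Wapal shRNA2 arrays lay below Empty Vector. The change was 0.25 ± 0.09 with Wapal depletion (adjusted p = 0.157) and 0.27 ± 0.09 with Smc3 depletion (adjusted p = 0.118). It was called with Wapal shRNA1 (0.67) and Smc3 shRNA2 (0.45), and Wapal shRNA1 lay above Wapal shRNA2 by 0.85 ± 0.11 (adjusted p = 0.0189). These were the shRNAs with which Sycp1 was called.

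Stra8, which germ cells induce in response to retinoic acid before meiosis, rose after Smc3 depletion. Its intensity (1420568_at, chromosome 6) was 396 and 292 with Wapal shRNA1, 520.3 and 532 with Wapal shRNA2, 783 and 767 with Smc3 shRNA1, 399.7 and 495 with Smc3 shRNA2, and 326 and 457 with Empty Vector. The Smc3 shRNA1 arrays stood highest, the Wapal shRNA2 arrays lay above Empty Vector, and the other 2 shRNA groups overlapped it. The change was 0.60 ± 0.15 with Smc3 depletion (1.52-fold, adjusted p = 0.0452) and 0.13 ± 0.16 with Wapal depletion (adjusted p = 0.671). Smc3 shRNA1 was called (1.01) and Smc3 shRNA2 was not (0.20), with a difference of 0.80 ± 0.17 (adjusted p = 0.0231). The Smc3 call held in 1 of the 6 fits without an array, and without Empty Vector replicate 1 the change was 0.36 (adjusted p = 0.226).

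Seen by shRNA, 4 member probe sets were called higher with Wapal shRNA1 (Sycp1, Sycp3, Ddx4 and Mael; 1.36% of all probe sets) and 2 with Wapal shRNA2 (Sycp3 and Mael; 1.59%). With Smc3 shRNA1 there were 6 (Smc1b, Sycp3, both Dazl probe sets, Mael and Stra8; 5.17%), and with Smc3 shRNA2 there were 5 (Smc1b, Stag3, Sycp1, Ddx4 and Mael; 3.82%). No member probe set was called lower with any shRNA. Mael was the only gene called with all 4.

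**Figure D3:**
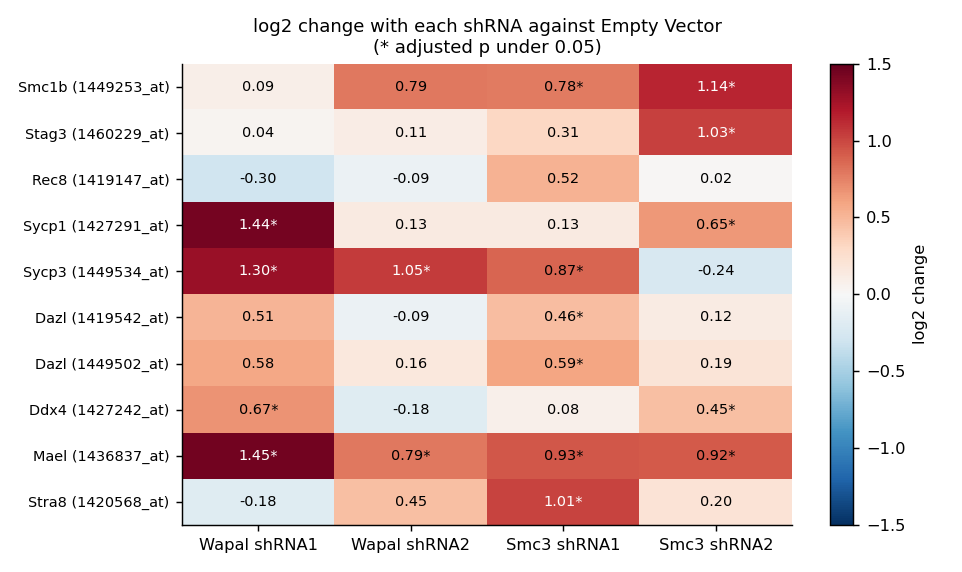
Change in log2 intensity of each member probe set (rows) with each shRNA against Empty Vector (columns); colour runs from blue (lower) to red (higher), and an asterisk marks an adjusted p under 0.05. Mael is called in each column, whereas Sycp1 and Ddx4 are called with Wapal shRNA1 and Smc3 shRNA2.

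The shRNAs to the same target were also set against each other, a comparison added after the data were seen. Wapal shRNA1 gave higher values than Wapal shRNA2 for Sycp1, Ddx4 and Mael (0.393% of all probe sets were called higher and 0.713% lower). Wapl itself was lower by 62.46% with Wapal shRNA1 and 91.22% with Wapal shRNA2. Smc3 shRNA1 gave higher values than Smc3 shRNA2 for Sycp3 and Stra8 and lower values for Stag3 and Sycp1 (5.85% higher and 4.04% lower). For the Wapal pair each of the 3 calls was lost when any 1 of the 4 Wapal arrays was left out. For the Smc3 pair the calls of Stag3, Sycp1 and Stra8 were lost when any 1 of the 4 Smc3 arrays was left out.

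Wapal-depleted ESCs were then compared with Smc3-depleted ESCs directly, in a fit of all 10 arrays. Here too a batch of the separately numbered Smc3 arrays, if there was any, cannot be told apart from the target. The cohesin subunits Smc1b (-0.52 ± 0.14, adjusted p = 0.0322), Stag3 (-0.59 ± 0.09, adjusted p = 0.00156) and Rec8 (-0.47 ± 0.12, adjusted p = 0.0238) were lower with Wapal than with Smc3 depletion, as was Stra8 (-0.47 ± 0.13, adjusted p = 0.0276). The synaptonemal complex genes Sycp1 (0.40 ± 0.07, adjusted p = 0.00352) and Sycp3 (0.86 ± 0.13, adjusted p = 0.00127) were higher with Wapal depletion. Single shRNAs carried part of these differences. Sycp1 averaged 7.49 in log2 with Wapal shRNA1 and 6.18 with Wapal shRNA2, against 6.18 with Smc3 shRNA1 and 6.70 with Smc3 shRNA2, so that Wapal shRNA1 alone stood above the Smc3 groups. Sycp3 averaged 8.92 with Wapal shRNA1 and 8.67 with Wapal shRNA2, against 8.49 with Smc3 shRNA1 and 7.38 with Smc3 shRNA2. Rec8 averaged 5.41 with Wapal shRNA1 and 5.61 with Wapal shRNA2, against 6.22 with Smc3 shRNA1 and 5.73 with Smc3 shRNA2. Stra8 averaged 8.41 with Wapal shRNA1 and 9.04 with Wapal shRNA2, against 9.60 with Smc3 shRNA1 and 8.80 with Smc3 shRNA2, so that Wapal shRNA2 lay above Smc3 shRNA2. Smc1b averaged 7.02 with Wapal shRNA1 and 7.72 with Wapal shRNA2, against 7.71 with Smc3 shRNA1 and 8.06 with Smc3 shRNA2, and for Stag3 both Smc3 shRNA groups lay above both Wapal shRNA groups. Mael (0.19 ± 0.07, adjusted p = 0.102), Ddx4 (-0.02 ± 0.07) and both Dazl probe sets (-0.08 ± 0.08 and -0.02 ± 0.09) did not pass. Across all probe sets, 6.71% were called higher and 10.7% lower with Wapal than with Smc3 depletion. Stag3, Sycp1 and Sycp3 passed in all 10 fits that left out 1 array, Smc1b in 5, and Rec8 and Stra8 in 4 each.

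The spread of the Empty Vector arrays bore on several members. Replicate 2 was above replicate 1 for 8 of the 10 probe sets, by up to 0.51, and the gap was 0.45 for Smc1b, 0.47 for Sycp3 and 0.49 for Stra8 but 0.15 for Mael and -0.09 for Sycp1. All 4 shRNA arrays lay above both Empty Vector arrays for 4 of the 10 probe sets with Wapal (Sycp1, Sycp3, Mael and Dazl on 1449502_at; 14.9% of all probe sets) and for 6 of the 10 with Smc3 (Smc1b, Stag3, Sycp1, Dazl on 1449502_at, Ddx4 and Mael; 11.4%). An earlier look at these values found that the arrays fall into 2 sides of 5, each with 1 Empty Vector array: Wapal shRNA1, Smc3 shRNA2 and Empty Vector replicate 1 against Wapal shRNA2, Smc3 shRNA1 and Empty Vector replicate 2. No label names this split. None of the 10 member probe sets was separated by it, but only 123 of all 45037 were, at a gap of 0.3 in log2. The absence of members therefore says little. For Sycp1 and Ddx4 both shRNA groups of the first side lay above both of the second, and only Empty Vector replicate 1 broke the split. Within the sides, Mael was above its Empty Vector array by 1.52 with Wapal shRNA1, 0.71 with Wapal shRNA2, 1.00 with Smc3 shRNA2 and 0.85 with Smc3 shRNA1. Sycp3 differed by 1.53, 0.81, -0.01 and 0.63 in the same order, Sycp1 by 1.40, 0.18, 0.60 and 0.18, and Smc1b by 0.32, 0.57, 1.36 and 0.56. With the side as a covariate the calls of Sycp1 with Wapal depletion (adjusted p = 0.0681) and of Stag3, Sycp1 and Dazl on 1449502_at with Smc3 depletion (adjusted p = 0.0872, 0.0985 and 0.0703) were lost. Their changes stayed at 0.79, 0.67, 0.39 and 0.39, since each depletion has 1 shRNA on each side. This model takes both shRNAs to a target as 1 group, so that a difference between them beyond the side counts as spread, and the SE of Sycp1 with Wapal depletion was 0.22 in place of 0.09.

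Across the 10 arrays, which share groups and controls, the members did not move as 1 block. The log2 values of Sycp1 and Ddx4 correlated most among the pairs of members (Pearson's r = 0.92), followed by Smc1b with Stag3 (0.80), Rec8 with Stra8 (0.79) and Sycp1 with Mael (0.78), while Sycp1 with Stra8 gave -0.53. Among all genes with an average of at least 6, those with the pattern most like Smc1b were Zranb3 (r = 0.964), Rbm44 (0.959) and Dmc1 (0.957), the recombinase of meiosis. For Stag3 they were Yif1b (0.987), St7l (0.985) and Cd99 (0.985). For Sycp1 they were Ccnc (0.978), Hipk2 (0.973) and Micos10 (0.959). For Sycp3 they were Ostf1 (0.981), Ugp2 (0.981) and Rnf17 (0.973), a Tudor-domain protein of germ cells. For Mael they were Pkn2 (0.948), Gm5617 (0.943) and Fut9 (0.942), and for Stra8 they were Khnyn (0.98), Csrp1 (0.972) and Ikbip (0.969). These correlations describe 10 arrays of 5 groups.

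The other genes of the same processes were followed in 4 lists, with the brightest probe set of each gene. These lists too were chosen with earlier results of the data known. Together 79 of 97 listed genes were measured. Of these, 31 averaged under 6 in log2, as did 8504 of all 18193 genes, so dim genes were a smaller share of the lists. With Wapal depletion 8 rose, 3 fell and 68 did not pass, so that 10.1% were called higher, whereas 2.63% of all genes were called higher and 4.93% lower. With Smc3 depletion 18 rose, 5 fell and 56 did not pass, so that 22.8% were called higher, whereas 6.08% of all genes were called higher and 3.94% lower. Their median change was 0.10 with Wapal and 0.16 with Smc3 depletion, and that of all genes was 0.01 in both. Sycp2, Tdrd12, Dppa3 and Taf7l rose in both. By shRNA, Sycp2 was called with each of the 4. Taf7l had 1.15 with Wapal shRNA1 and -0.05 with Wapal shRNA2, and 1.01 with Smc3 shRNA1 and 0.46 with Smc3 shRNA2. Dppa3 had 0.42 with Wapal shRNA1 and 0.76 with Wapal shRNA2, and 0.82 with Smc3 shRNA1 and 0.14 with Smc3 shRNA2. Tdrd12 had 0.54 with Wapal shRNA1 and 0.55 with Wapal shRNA2, and 1.11 with Smc3 shRNA1 and 0.22 with Smc3 shRNA2.

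Among 16 measured genes of the synaptonemal complex and chromosome axis, 3 rose with Wapal depletion: Sycp2, the partner of Sycp3 in the lateral element (0.78 ± 0.09, adjusted p = 0.00682), Hormad1, which marks unsynapsed axes (0.59 ± 0.11), and Tex15 (0.42 ± 0.09). With Smc3 depletion 7 rose and 1 fell, and the median was 0.36 against 0.14 with Wapal depletion. The rises were led by Sycp2 (0.98 ± 0.14, adjusted p = 0.00488), Terb2, which ties telomeres to the nuclear envelope in meiosis (0.77 ± 0.12), Tex11, an X-linked gene needed for crossovers (0.70 ± 0.10), and the central element protein Syce3 (0.64 ± 0.13), and Sycp2l fell by 0.52 ± 0.13. By shRNA, Hormad1 was called with Wapal shRNA1 (1.01) and not with Wapal shRNA2 (0.17). Tex11 was called with Smc3 shRNA2 (1.1) and not with Smc3 shRNA1 (0.29). The intensity of Sycp2 (1444122_at) was 77.1 and 77.3 with Wapal shRNA1, 62 and 60.7 with Wapal shRNA2, 59.6 and 73.6 with Smc3 shRNA1, 83 and 108 with Smc3 shRNA2, and 42.5 and 37.6 with Empty Vector. All 8 shRNA arrays lay above both Empty Vector arrays, as for Mael.

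Of 19 measured genes of meiotic recombination, 0 were called with Wapal depletion (limma; the median was 0.10). With Smc3 depletion 2 rose and 0 fell: Meiob, a single-strand DNA-binding protein (1.14 ± 0.18), and Mei4, needed for meiotic DNA breaks (0.53 ± 0.09). Meiob averaged 4.32 in log2, within the range of the olfactory receptor probe sets.

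Of 19 measured genes of the piRNA pathway and nuage, to which Mael belongs, 2 rose and 1 fell with Wapal depletion. Tdrkh (0.56 ± 0.12) and Tdrd12 (0.55 ± 0.12), Tudor-domain proteins, rose, and the Piwi protein Piwil2 fell by 0.51 ± 0.10. With Smc3 depletion 6 rose and 1 fell. Gpat2, an acyltransferase relative of the outer mitochondrial membrane that binds Piwi proteins (1.01 ± 0.09, adjusted p = 0.000847), Tdrd7 (0.70 ± 0.12), Piwil4 (0.68 ± 0.15) and Tdrd12 (0.66 ± 0.12) led the rises, and the piRNA nuclease Pld6 fell by 0.45 ± 0.11. Tdrd7, Piwil4 and Tdrd12 were called with Smc3 shRNA1 (1.07, 1.28 and 1.11) and not with Smc3 shRNA2 (0.33, 0.07 and 0.22). Piwil4 averaged 4.42, within the range of the olfactory receptor probe sets, and its probe set is of a type (_x_at) open to cross-hybridisation. Tdrd7 averaged 4.71, just above the 95th percentile of that range (4.62). Gpat2 (1456208_at) had intensities of 374 and 345 on the Smc3 shRNA1 arrays, and 399 and 384 on the Smc3 shRNA2 arrays, against 181 and 192 with Empty Vector.

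Regulators of germ cell fate and meiotic entry went both ways. Of 25 measured, 3 rose and 2 fell with Wapal depletion: Brdt, a bromodomain protein of the testis (0.72 ± 0.15, average 5.23), Dppa3, a maternal factor also called Stella (0.59 ± 0.12), and Taf7l, a germ cell relative of a TFIID subunit (0.55 ± 0.11), rose, and Prdm14 (-0.52 ± 0.11) and the helicase Ddx43 (-0.44 ± 0.09) fell. With Smc3 depletion 3 rose and 3 fell. Meioc, which stabilises meiotic transcripts (0.81 ± 0.13), Taf7l (0.73 ± 0.10) and Dppa3 (0.48 ± 0.11) rose. Tfap2c (-1.90 ± 0.20), Prdm14 (-1.57 ± 0.11) and the receptor Kit (-0.49 ± 0.12) fell. Tfap2c and Prdm14 specify primordial germ cells and also act in ESCs. Prdm14 (1444390_at) had intensities of 298 and 310 on the Smc3 shRNA1 arrays, and 207.5 and 176 on the Smc3 shRNA2 arrays, against 670 and 763 with Empty Vector, with no overlap. With single Wapal shRNAs, Prdm14 was called lower with Wapal shRNA1 (-0.89) and not with Wapal shRNA2 (-0.16).

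**Figure D4:**
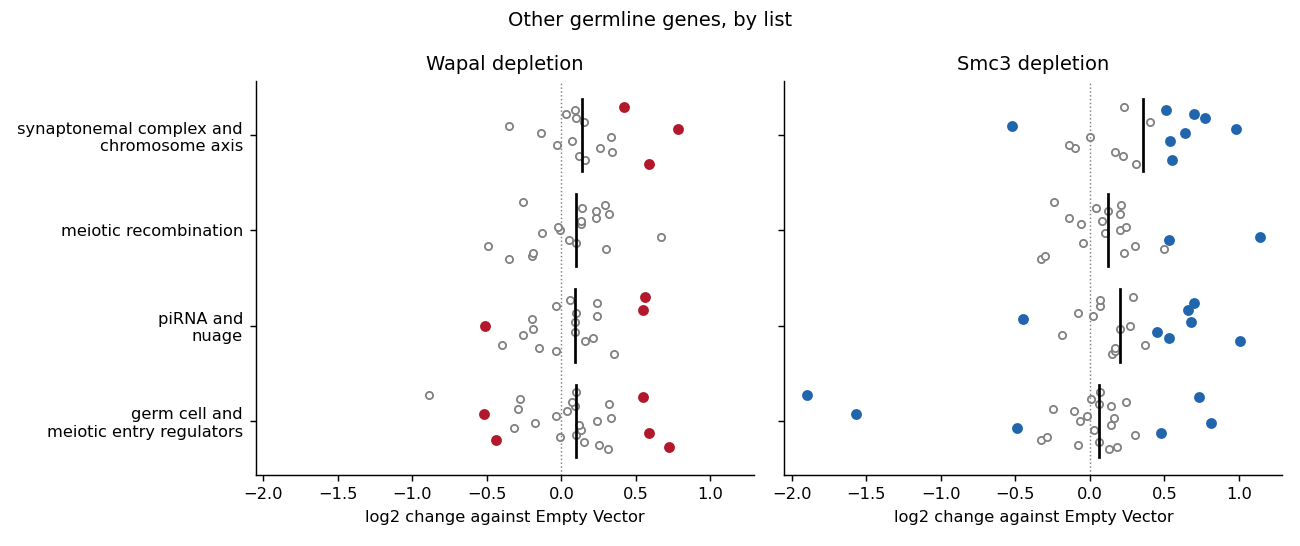
Change in log2 intensity against Empty Vector (horizontal axis) of the measured genes of the 4 germline lists outside the members, with Wapal depletion (left) and Smc3 depletion (right); filled points passed an adjusted p of 0.05 and bars mark the median of a list. The median of the synaptonemal complex and axis list is 0.14 with Wapal and 0.36 with Smc3 depletion, and Tfap2c and Prdm14 lie farthest below 0 with Smc3 depletion.

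Genes of the Mga and E2f6 complex and of DNA and histone H3K9 methylation were looked at beside the members. Of 13 measured subunits and partners of the Mga and E2f6 complex, Yaf2 rose with Wapal depletion (0.42) and 0 fell, and with Smc3 depletion E2f6 (0.45) and Yaf2 (0.48) rose and Wdr5 fell (-0.46). Mga (-0.08 and 0.13) and Pcgf6 (-0.22 and 0.02) did not pass with Wapal or Smc3 depletion. Of 15 measured genes of DNA and histone H3K9 methylation, Tet2 (-0.65), Trim28 (-0.39) and Ehmt1 (-0.38) fell and 0 rose with Wapal depletion. This list also holds the Tet enzymes, which act against DNA methylation and not for it. With Smc3 depletion the DNA methyltransferases Dnmt3b (0.64) and Dnmt3a (0.48) and their cofactor Dnmt3l (0.84) rose, and Tet2 (-0.71) and Mbd1 (-0.49) fell. Their part in the changes of the members was not tested.

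Markers of other cell types were also read. Of 11 measured markers of gonadal somatic cells, 10 were dim, and 0 passed with Wapal depletion and 1 with Smc3 depletion (Wt1, 0.62, average 4.71). Their summed intensity was 413 to 449 with Wapal shRNA1, 419 to 420 with Wapal shRNA2, 371 to 379 with Smc3 shRNA1, 388 to 403 with Smc3 shRNA2, and 372 to 397 with Empty Vector. Of 7 measured of 20 listed markers of the two-cell-like state, which a few ESCs enter in culture, 3 rose with Wapal and 2 with Smc3 depletion and 0 fell in either. Their sum was 5268 to 5648 with Wapal shRNA1, 7705 to 7712 with Wapal shRNA2, 6088 to 6553 with Smc3 shRNA1, 4458 to 4470 with Smc3 shRNA2, and 4859 to 5082 with Empty Vector. The probe set of Eif1a, of a type (_s_at) that can match several transcripts, made up most of the sum with Empty Vector. Without it, a sum added after the data were seen, the other 6 gave 2640 to 2969 with Wapal shRNA1, 4947 to 4964 with Wapal shRNA2, 3472 to 3751 with Smc3 shRNA1, 1951 to 2143 with Smc3 shRNA2, and 1700 to 2121 with Empty Vector. Usp17la in turn made up most of this sum in every group (1304.5 and 1637 with Empty Vector, 4164 and 4091.5 with Wapal shRNA2). The sum is therefore largely the level of 1 gene. Of 10 ESC markers, 1 rose and 2 fell with Wapal depletion and 4 fell with Smc3 depletion, among them Nanog (-0.71 ± 0.09). Of 14 measured fibroblast markers (feeder cells), 12 were dim, and 1 rose and 2 fell with Wapal and 4 rose and 1 fell with Smc3 depletion. Of 17 measured germ layer and trophectoderm markers, 1 rose with Wapal depletion and 0 passed with Smc3 depletion. The part of these markers in the changes of the members was not tested.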

How the data were processed

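Total RNA of 10 ESC samples was measured on Affymetrix mouse genome arrays, 1 per sample. The deposited values are intensities on a linear scale per probe set, which the authors made from the scanner files by RMA (background correction, quantile normalisation and summary per probe set; credited to the submitters' processing notes, with the version not given in the sources used here). RMA gives all arrays nearly the same distribution, so a shift of most genes in 1 direction would not be seen. From these, log2 values were computed here. In R 4.3.3, limma 3.58.1 estimated a mean for each group with lmFit, without covariates, and eBayes gave two-sided tests, with Benjamini-Hochberg adjustment over 45037 probe sets and a threshold of 0.05, after 64 control probe sets of 45101 were left out and no filter on intensity. Symbols came from the platform annotation: 34945 probe sets carry 1 symbol, 932 several and 9160 none. Each depletion is the mean of both its shRNA groups minus Empty Vector, fitted on 6 arrays. The fits were tested on simulated data.

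The genes, lists and alternatives were chosen with earlier results of these data known. The brightest probe set stands for a gene, and at most 4 called genes of a list are named per direction and comparison. By likeness of pattern 3 genes are named per called member, and there the best-fitting probe set stands for a gene. The lists were written from general knowledge of meiosis, germ cells and markers. Groups follow the sample labels. A table that accompanies the study gives 2 Wapal arrays the other way round. Under the sample labels, Wapl differed between replicates by 0.11 and 0.12 in log2 with the Wapal shRNAs, and with the 2 arrays exchanged by 1.98 and 2.21. The alternatives tried were all arrays in 1 model, an offset of 16, dim probe sets left out, a second quantile normalisation, the replicate block, the array side, an intensity trend, the methods' t-test and leaving out each array. The study names a t-test for comparisons in general and not for single genes on the arrays. Here it took both shRNAs to a target as 1 group, so that a difference between them counts as spread. Contrasts between shRNAs to the same target were added after the data were seen. Promoter windows are RefSeq's, on GRCm38.p6.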

Additional observations from a re-analysis of the deposited data

Results flagged for a closer look

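The effect of depletion on 6 members differed between Wapal and Smc3 by a test of the difference itself (limma, all 10 arrays). In this test the target and a batch of the separately numbered Smc3 arrays, if there was any, cannot be told apart. Wapal minus Smc3 depletion was -0.52 in log2 for Smc1b, -0.59 for Stag3, -0.47 for Rec8 and -0.47 for Stra8. It was 0.40 for Sycp1 and 0.86 for Sycp3. Single shRNAs carried part of these differences: in log2, Sycp1 averaged 6.18 with Wapal shRNA2, against 6.18 and 6.70 with the Smc3 shRNAs, Stra8 averaged 9.04 with Wapal shRNA2, against 8.80 with Smc3 shRNA2, and Rec8 was highest with Smc3 shRNA1 (6.22, with 5.73 for Smc3 shRNA2). Of the 6, Rec8 passed in neither comparison with Empty Vector.

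The shRNAs to the same target also differed by a test of the difference. Wapal shRNA1 minus Wapal shRNA2 was 1.31 for Sycp1, 0.85 for Ddx4 and 0.66 for Mael. Smc3 shRNA1 minus Smc3 shRNA2 was 1.11 for Sycp3 and 0.80 for Stra8, and it was -0.72 for Stag3 and -0.52 for Sycp1. The contrast between shRNAs runs along the split of the arrays into 2 sides, so the shRNA and the side cannot be told apart in it. The Empty Vector arrays, 1 on each side, differed by 0.09 for Sycp1 and 0.11 for Ddx4, with replicate 1 the higher, and by 0.15 for Mael, with replicate 2 the higher.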

How the results depend on the processing

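With 2 arrays per group, precision was limited. Only Rec8 averaged under 6 in log2, and Sycp1 lay close to 6 with Empty Vector (6.05). For single members, 520 of the recomputed values kept their direction and side of the threshold, 82 kept the direction but no longer passed, 30 newly passed and 13 changed sign. The causes were not tested. Wapal depletion called 2661 of all probe sets, 4264 with all 10 arrays in 1 model, 4525 with an intensity trend, 3 with the methods' t-test and 496 to 2281 without 1 array. The 3 member calls stayed 3 without each array, with 0 by the methods' t-test (2 unadjusted, and 15.7% of all probe sets). Smc3 depletion called 6 member probe sets, 3 with the side as a covariate, 0 with the methods' t-test (2 unadjusted, and 12.2% of all probe sets) and 1 to 6 without 1 array. It called 3434 of all probe sets, 0 with the methods' t-test and 1534 to 4199 without 1 array. Wapal minus Smc3 depletion called 6 member probe sets and 7820 of all, and 3 to 6 and 4968 to 8796 without 1 array. Wapal shRNA1 minus Wapal shRNA2 called 3 member probe sets, and 0 to 5 without 1 array. Smc3 shRNA1 minus Smc3 shRNA2 called 4, and 7 with an offset of 16, 7 with dim probe sets left out and 0 to 7 without 1 array.

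Changes of sign were of small values that did not pass. Wapal depletion gave -0.06 to 0.21 for Stag3 without 1 array, -0.11 to 0.38 for Stra8 and -0.45 to 0.06 for Rec8. Wapal minus Smc3 depletion gave 0.08 for Ddx4 and 0.06 for Dazl on 1449502_at with quantile normalisation, and -0.04 to 0.00 and -0.11 to 0.07 without 1 array. Wapal shRNA1 minus Wapal shRNA2 gave -0.17 to 0.02 for Stag3 without 1 array. Smc3 shRNA1 minus Smc3 shRNA2 gave -0.03 for Mael with quantile normalisation and -0.09 to 0.09 without 1 array. With quantile normalisation, Wapal minus Smc3 depletion lost Smc1b (-0.42, adjusted p = 0.0736) and Stra8 (-0.39, adjusted p = 0.0545). Replicate numbers did not pair the samples: deviations of same-numbered arrays correlated at -0.156 to 0.057 between groups. With the replicate block, Smc3 depletion lost Sycp1 (adjusted p = 0.0609) and Dazl on 1449502_at (adjusted p = 0.0689) and called 4 member probe sets, Wapal shRNA1 minus Wapal shRNA2 lost Mael (adjusted p = 0.0582), and Wapal depletion called the same number of member probe sets, 3.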
